A study of Mus musculus with 36 samples.

Results

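This comparison is between the livers of F/F mice fed a diet that promotes metabolic dysfunction-associated steatohepatitis (MASH) and the livers of F/F mice fed chow. F/F mice are homozygous for a CRISPR-made change of tryptophan 441 to phenylalanine in the liver X receptor alpha (LXRalpha). The comparison takes 8 of the 36 libraries of the series, chosen by their labels. They are 4 F/F livers on the MASH diet with vehicle and 4 F/F livers on chow. Tested were the 16638 of 49315 listed genes that reached 1 TPM (transcripts per 1000000 transcripts) in at least 4 of the 36 libraries. All mice were males of 11 to 12 weeks. The diet group ate a high-fat, high-cholesterol feed (Teklad TD.96121) for 4 weeks and received vehicle by daily gavage over the last 2 weeks. The chow group was an independent cohort, and the labels name no gavage for it, so the diet, the gavage and the cohort cannot be told apart. The same comparison in W/W mice, which carry the unchanged receptor, and in heterozygous W/F mice is used below as a reference, with 4 livers in each group. The other 3 groups of the series received the synthetic LXR agonist T0901317 at 10 mg/kg. They enter the estimate of spread, the filter of genes and the rescaling used below, but none of the comparisons. The labels number the libraries of a group and say no more on how the animals were drawn, so p-values measure the spread between these libraries.

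LXRalpha is a nuclear receptor that is activated by oxidised cholesterol. In the liver it drives the genes that export cholesterol into bile and onto lipoproteins, and the gene of the lipogenic factor SREBP-1c. It also drives the desaturase and the acyltransferase that remodel fatty acids and membrane phospholipids. Sterol synthesis is run by a sister factor, SREBP-2, which is held inactive when cells are rich in cholesterol. The liver's resident macrophages are the Kupffer cells, whose identity genes depend in part on LXRalpha. In steatohepatitis, macrophages recruited from blood monocytes take on a lipid-associated state marked by Trem2 and Gpnmb, stellate cells deposit collagen, and cells of bile duct type expand in a ductular reaction.

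The F/F livers on the MASH diet formed a tight set that stood apart from the F/F livers on chow. Over log2(TPM + 1), the first principal component of the 8 libraries held 67.1% of the variance and placed the chow livers between -67.6 and -36.3 and the diet livers between 46.6 and 54.2. Pearson's r across genes between libraries of a group was 0.974 to 0.983 on chow and 0.974 to 0.98 on the diet, where genes are not independent replicates. More genes reached 1 TPM on the diet (15432.5 ± 119, SD, n = 4) than on chow (14069.5 ± 338, SD, n = 4), and the top 100 genes of a library took up 42.5% ± 1.32 of its TPM on the diet against 50% ± 3.03 on chow. Read totals recovered from the low TPM values were 21 to 32.3 M reads on chow and 23.1 to 26.4 M reads on the diet (M, 1000000). The mutation is a point change, so RNA levels cannot check the genotype labels. The series' design text writes Nr1h2 beside LXRalpha. That symbol usually names LXRbeta and Nr1h3 names LXRalpha, so both are given. Nr1h3 stood at 109, 95.4, 105 and 101 TPM on chow and at 124, 103, 95.8 and 91.4 TPM on the diet, with overlapping groups and a log2 difference of 0.01 (SE 0.10, adjusted p = 0.96). Nr1h2 stood at 33.9 ± 4.83 TPM on chow and 47.2 ± 2.57 TPM on the diet (SD, n = 4 each), a log2 difference of 0.47 (SE 0.10, adjusted p = 0.00026).

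Of the 16638 genes, 9279 (55.8%) passed an adjusted p of 0.05 in limma's moderated test with Benjamini-Hochberg adjustment. The diet livers were higher for 7737 (46.5%) and lower for 1542 (9.27%). At least a doubling was seen for 2217 of the genes called higher and at least a halving for 427 of those called lower. TPM adds up to the same total in every library, so the measured split depends on the scaling. When libraries were instead scaled so that the median of 13950 genes matched (median-of-ratios factors, called rescaled below), 7815 genes passed (47.0%), 4301 higher (25.9%) and 3514 lower (21.1%). Among the genes called, the higher ones thus made up 83.4% as deposited and 55.0% rescaled, and the median log2 difference of all genes was 0.32 and 0.03. Rescaled, Nr1h3 was lower (log2 difference -0.34, adjusted p = 0.0054) and Nr1h2 was at 0.13 (adjusted p = 0.14). Counts for lists of genes are given below on both scales, and a list is read against these background shares. The 4 diet livers lay above all 4 chow livers for 7054 genes (42.4%) and below all 4 for 1356 (8.15%).

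The strongest rises included macrophage, matrix, cytokine and lymphoid genes. Lgals3, the galectin-3 secreted by activated macrophages, lies at chr14:47367751-47386160 on the plus strand (GRCm38). It stood at 22.1, 21.8, 39.1 and 39.5 TPM in the chow livers and at 585, 559, 498 and 610 TPM in the diet livers. The groups were far apart, with a log2 difference of 4.21 (SE 0.46, adjusted p = 9.4e-09). Mmp7, a matrix protease made by bile duct cells (chr9:7692090-7699585, plus strand), stood at 4.85, 12.8, 6.75 and 6.5 TPM on chow and at 160, 142, 106 and 157 TPM on the diet (log2 difference 4.09, SE 0.35, adjusted p = 1.4e-10). Gpnmb, a glycoprotein of lipid-loaded macrophages (chr6:49036546-49070929, plus strand), went from 28.5, 25.7, 47.3 and 37.8 TPM to 515, 497, 461 and 601 TPM (3.89, SE 0.53, adjusted p = 4.1e-07). In each of these 3 genes the lowest diet liver was several times the highest chow liver.

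Other members of the 12 largest rises included lymphoid, neutrophil, cytokine-induced and hormone genes. Il7r, a receptor chain of lymphocytes (chr15:9505788-9530176, minus strand), rose from 1.53 ± 0.487 to 27.9 ± 3.12 TPM (SD, n = 4 each), and Ltb, the lymphotoxin beta ligand, from 4.23 ± 1.28 to 54.2 ± 7.33 TPM. Ubd, a ubiquitin-like modifier induced by cytokines (chr17:37193892-37196095), rose from 57.1 ± 21.3 to 728 ± 52.9 TPM. The neutrophil granule gene Ngp rose from 1.99 ± 1.22 to 32.6 ± 15 TPM. Chil3 rose from 1.53 ± 0.321 to 40.0 ± 13.8 TPM, and the immunoglobulin constant regions Igkc and Igha by 3.57 and 3.46 on the log2 scale. Chil3 and the immunoglobulin genes belong to families of near-identical sequence, so their values are uncertain. The hormone genes Npy and Guca2b were at the limit of detection on chow. Npy had 0, 0, 2 and 0 recovered reads in the chow livers and 9.84, 9.97, 11.9 and 11.2 TPM in the diet livers. Guca2b had 2, 0, 1 and 1 reads on chow and 8.63, 31.5, 13.2 and 12.6 TPM on the diet, and no fold is given for either.

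The 12 largest falls were mostly hepatocyte genes of lipid, steroid and drug metabolism. Elovl3, a fatty acid elongase (chr19:46131897-46135694, plus strand), stood at 213, 135, 53.0 and 137 TPM on chow and at 0.228, 1.39, 1.98 and 0.623 TPM on the diet (log2 difference -5.97, SE 0.56, adjusted p = 7.9e-10). Sult2a8, a sulfotransferase of bile acids (chr7:14410686-14446769, minus strand), stood at 459, 263, 194 and 204 TPM on chow and at 3.88, 3.51, 3.33 and 5.39 TPM on the diet (-5.73, SE 0.30, adjusted p = 5.5e-15). Idi1, an isomerase of sterol synthesis (chr13:8885501-8892451, plus strand), stood at 206, 117, 138 and 159 TPM on chow and at 1.23, 1.81, 2.99 and 2.57 TPM on the diet (-5.63, SE 0.23, adjusted p = 1.1e-17). Each diet liver was far below the lowest chow liver for these 3 genes. Cyp8b1, which makes cholic acid, fell from 448 ± 83.0 to 17.8 ± 5.51 TPM, and Slco1a1, an organic anion transporter, from 101 ± 48.8 to 3.18 ± 1.08 TPM. Mup3 (chr4:62083476-62087342, minus strand), Serpina1e, the pseudogene Serpina4-ps1, Cyp2c54 (chr19:40037940-40073827, minus strand), Cyp2b9, Ces3b and Gm21320 fell by 4.34 to 5.56 on the log2 scale. The Mup, Serpina1, Cyp2b and Cyp2c families hold near-identical copies, so reads may be split among them.

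**Figure D1:**
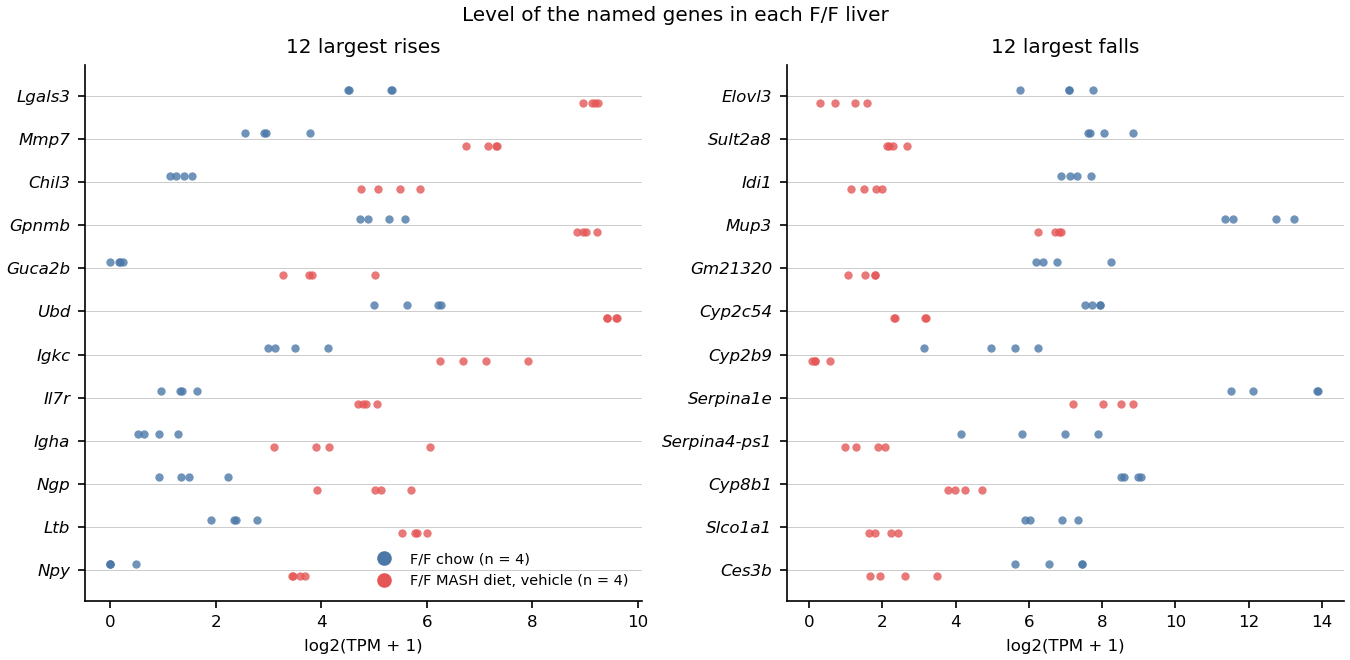
Level of the 12 genes with the largest rises and the 12 with the largest falls in F/F livers, as log2(TPM + 1) in each mouse (chow blue, MASH diet with vehicle red, 4 mice each). The colours do not mix for any gene, which the naming rule required, and Elovl3, Sult2a8 and Idi1 drop from at least 53.0 TPM in each chow liver to at most 5.39 TPM in each diet liver.

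The plot of gene lists sets 37 lists of known function beside each other. Lists of sterol synthesis and of male-biased liver genes lay furthest to the low side, and lists of neutrophil, lipid-associated macrophage, bile duct, monocyte and cytokine, matrix protease and immediate early genes furthest to the high side. These lists were chosen with results from these libraries known, and their counts are descriptions without a test of the list.

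**Figure D2:**
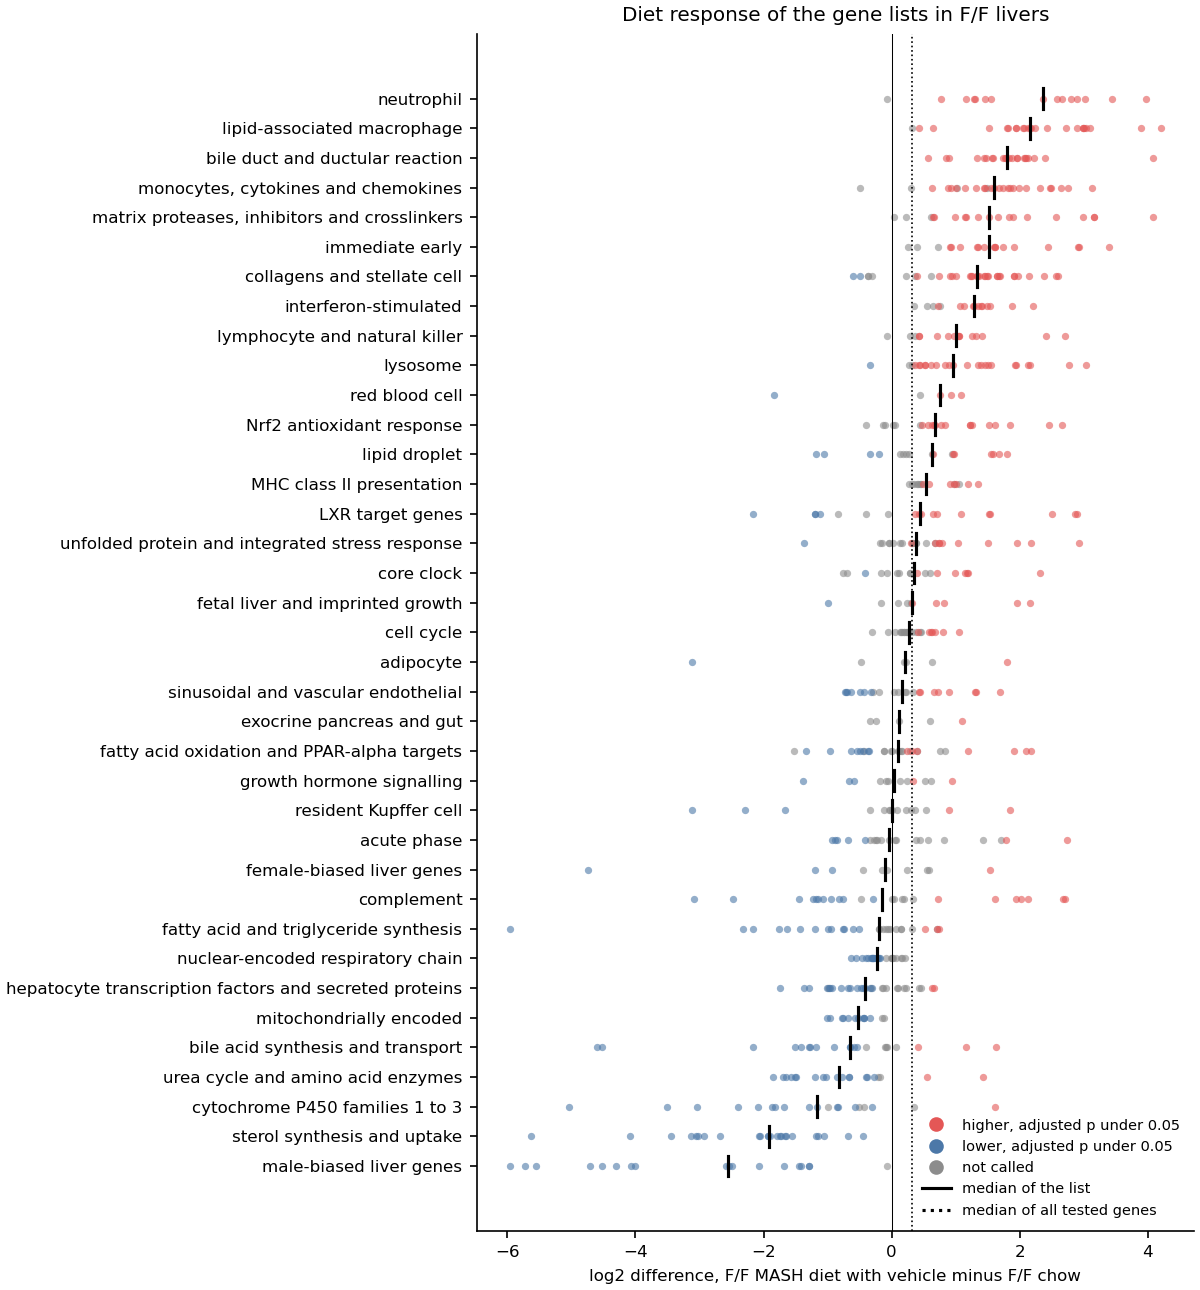
Log2 difference of diet against chow in F/F livers for each tested member of 37 gene lists with at least 5 tested members (red called higher, blue called lower, grey not called at an adjusted p of 0.05). Black ticks are list medians and the dotted line is the median of all 16638 genes, 0.32, and the sterol list is blue throughout with a median of -1.91.

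All 24 genes of the sterol synthesis and uptake list were lower on the diet, as deposited and rescaled, where 9.27% of all genes were lower as deposited and 21.1% rescaled. The list median was -1.91 on the log2 scale. Hmgcs1, which makes the entry metabolite of the mevalonate pathway, stood at 839, 352, 499 and 628 TPM on chow and at 58.5, 72.2, 79.7 and 77.1 TPM on the diet (log2 difference -2.93, SE 0.21, adjusted p = 4.7e-12). The groups were far apart, although the chow livers differed among themselves by a factor of more than 2. Nsdhl and Cyp51, which act after lanosterol, fell by 3.44 and 4.08. The smallest fall was that of Srebf2, which encodes SREBP-2, at 39.0 ± 5.08 and 28.3 ± 2.55 TPM (-0.44, SE 0.14, adjusted p = 0.0082).

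Since these genes fell together, their promoters are shown for Hmgcs1 and Nsdhl as the 250 bases before the transcription start in the RefSeq annotation of GRCm38.p6. Hmgcs1 covers chr13:119690101-119690350 and Nsdhl chrX:72918271-72918520, both on the plus strand. Capitals mark the CCAAT box, which binds the partner factor NF-Y and is written ATTGG where it lies on the other strand, and the sterol regulatory element searched as TCACNCCAC.
Hmgcs1: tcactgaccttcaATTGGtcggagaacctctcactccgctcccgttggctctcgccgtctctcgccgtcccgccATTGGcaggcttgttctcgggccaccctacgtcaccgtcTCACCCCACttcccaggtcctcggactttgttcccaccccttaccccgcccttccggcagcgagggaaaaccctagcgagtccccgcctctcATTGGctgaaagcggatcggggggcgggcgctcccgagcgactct
Nsdhl: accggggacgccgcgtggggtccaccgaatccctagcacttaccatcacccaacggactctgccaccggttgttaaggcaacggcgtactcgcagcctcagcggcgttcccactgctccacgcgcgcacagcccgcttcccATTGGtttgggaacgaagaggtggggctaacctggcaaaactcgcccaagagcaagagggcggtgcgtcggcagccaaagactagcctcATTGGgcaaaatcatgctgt
Hmgcs1 held 3 CCAAT boxes and 1 sterol element, and Nsdhl 2 CCAAT boxes and 0 sterol elements with these letters. A promoter entry was matched for 16 of the 24 genes. A CCAAT box on either strand was present in 16 of these 16, against 37.5% of the 27025 genes with an entry. The sterol element was matched in 1 of 16, against 1.22% of all genes. A match of letters is not a bound site, and binding was not measured.

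The fall of sterol genes was shared with the other genotypes but differed in size. On the diet, 23 of the 24 genes were called lower in W/W livers, where 10.3% of all genes were, and 24 in W/F livers, where 8.53% were. The fall in F/F was smaller than in W/F for 18 of the 24 genes by the test of the difference between the 2 responses, a direction that 1.34% of all genes showed, and for 22 rescaled. In sum the list held 2343 to 4104 TPM on chow and 653 to 761 TPM on the diet in F/F. The W/F sums were 4758 to 6316 TPM on chow and 667 to 732 TPM on the diet. The sums of the 2 genotypes thus overlapped on the diet and were apart on chow, where F/F was lower. Against W/W, 3 genes fell less and 5 fell more in F/F (2 and 8 rescaled), where 41.5% of all genes had a higher and 4.54% a lower response in F/F (14.7% and 12.2% rescaled). Sqle, the epoxidase of squalene, stood at 87.0, 54.4, 52.7 and 67.8 TPM on chow and at 7.91, 7.54, 12.9 and 9.07 TPM on the diet in F/F. In W/W livers Sqle went from 69.2 ± 14.1 to 2.39 ± 0.532 TPM, and in W/F livers from 137 ± 21.2 to 2.87 ± 0.301 TPM (SD, n = 4 each). The F/F response of Sqle was smaller by 1.68 on the log2 scale than in W/W (SE 0.24, adjusted p = 3.5e-06) and by 2.47 than in W/F (SE 0.24, adjusted p = 9.2e-08). Idi1 went the other way against W/W, with an F/F response lower by 1.25 (SE 0.32, adjusted p = 0.0025), while its difference from W/F was 0.97 (SE 0.32, adjusted p = 0.066).

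**Figure D3:**
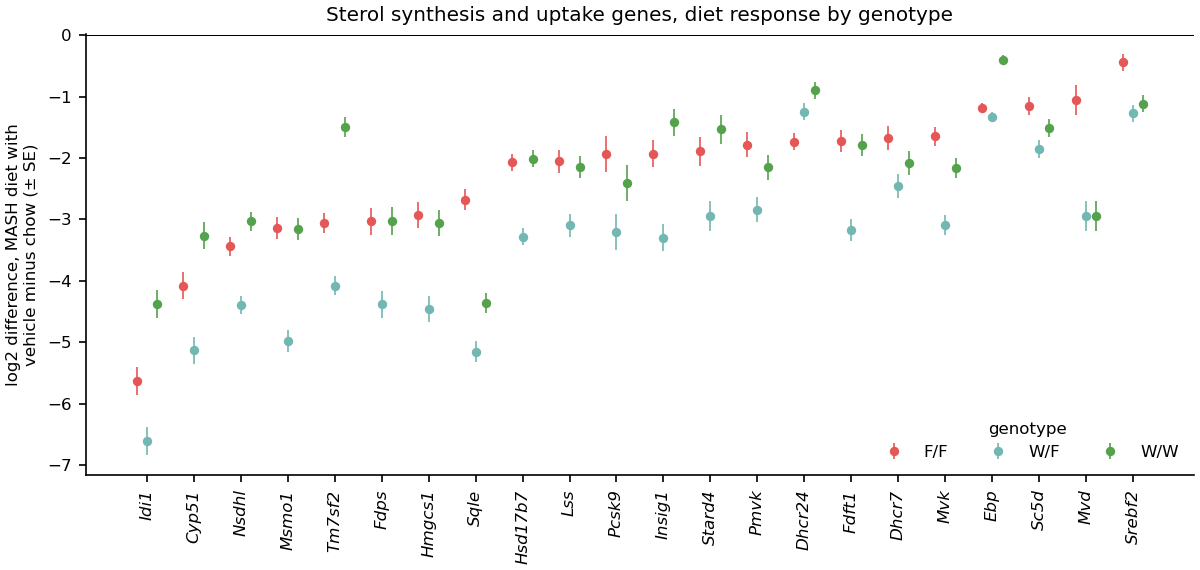
Log2 difference of MASH diet with vehicle against chow for 22 of the 24 sterol genes in F/F, W/F and W/W livers (points with bars of 1 SE, 4 against 4 mice in each genotype). Every F/F point lies below 0, and for most genes the W/F point is the lowest of the 3, as for Sqle at -2.68 in F/F and -5.15 in W/F.

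Genes that LXR is known to drive moved apart from each other. Of 18 listed, 11 were higher, 4 lower and 3 not called (6 higher and 5 lower rescaled). Among all genes 46.5% were higher and 9.27% lower (25.9% and 21.1% rescaled), so the rescaled split of the list was near that of all genes. Abcg1, which exports cholesterol from macrophages, stood at 3.94, 2.89, 5.18 and 4.29 TPM on chow and at 32.5, 35.1, 33.2 and 41.0 TPM on the diet (log2 difference 2.86, SE 0.24, adjusted p = 7.1e-11). Lipoprotein lipase, Lpl, stood at 8, 6.76, 12.7 and 14.4 TPM and then at 67.1, 91.8, 79.0 and 86.2 TPM (2.89, SE 0.30, adjusted p = 4.5e-09). Both had wide gaps between the groups, and both are also expressed by macrophages. The ubiquitin ligase Mylip rose from 7.62 ± 1.72 to 23.8 ± 5.02 TPM, and the phospholipid transfer protein Pltp from 6.21 ± 1.76 to 19.8 ± 4.27 TPM.

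The biliary cholesterol exporters moved the other way. Abcg5 stood at 120, 39.7, 103 and 90.6 TPM on chow and at 39.4, 37.4, 31.8 and 40.3 TPM on the diet, and its partner Abcg8 at 103, 32.1, 82.8 and 75.4 TPM and then at 29.7, 28, 25.8 and 33.3 TPM. Chow liver 2 lay within or beside the diet range for both genes, and the other 3 chow livers lay well above it. The log2 differences were -1.12 (SE 0.23, adjusted p = 0.00017) and -1.19 (SE 0.27, adjusted p = 0.00049). In W/W livers both genes rose on the diet, Abcg5 from 81.5 ± 18.7 to 290 ± 41.4 TPM and Abcg8 from 65.6 ± 15.9 to 188 ± 45.4 TPM. The responses of F/F and W/W differed by -2.96 (SE 0.33, adjusted p = 1.5e-07) for Abcg5 and -2.70 (SE 0.39, adjusted p = 4.1e-06) for Abcg8. The exporter Abca1 stood at 29.1 ± 6.80 and 37.2 ± 4.30 TPM, a difference of 0.37 (adjusted p = 0.04) that was 0.03 after rescaling (adjusted p = 0.90) and was not called without chow liver 3 or 4 or without diet liver 2 or 4 (adjusted p = 0.094 to 0.18). Lpcat3, which remodels phospholipids, stood at 40.2 ± 7.81 and 62.5 ± 3.16 TPM (0.64, SE 0.14, adjusted p = 0.00025; rescaled 0.30, adjusted p = 0.089).

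Of 27 listed genes of fatty acid and triglyceride synthesis, 13 were lower, 3 higher and 11 not called (14 lower and 0 higher rescaled), with a median of -0.20. The shares of all genes called lower were 9.27% and 21.1%. Scd1, the stearoyl desaturase, stood at 93.5, 53.3, 50.3 and 58.6 TPM on chow and at 11.2, 15, 13.7 and 12.6 TPM on the diet in F/F (log2 difference -2.16, SE 0.30, adjusted p = 4.2e-07). The F/F groups did not overlap, and both lay far below the W/W levels of 3708 ± 1678 TPM on chow and 7896 ± 2382 TPM on the diet. W/F livers went from 38.3 ± 18.0 to 514 ± 138 TPM. The F/F response of Scd1 was lower by 3.36 than that of W/W (SE 0.42, adjusted p = 6.3e-07) and by 5.94 than that of W/F (SE 0.42, adjusted p = 1e-10). Elovl6, Acss2, Thrsp and Lpin1 fell by 2.32, 1.76, 1.63 and 1.43. Fasn, fatty acid synthase, stood at 33.2, 12.7, 21.7 and 22.3 TPM and then at 7.63, 8.64, 11.0 and 7.93 TPM (-1.20, SE 0.41, adjusted p = 0.015), and at -0.99 without chow liver 1 (adjusted p = 0.061). Srebf1, which encodes SREBP-1, stood at 14.3 ± 2.58 and 23.8 ± 1.93 TPM in F/F (0.71, SE 0.22, adjusted p = 0.0061; rescaled 0.38, adjusted p = 0.17) and at 123 ± 7.66 and 398 ± 171 TPM in W/W.

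Of 17 lipid droplet genes, 7 were higher and 4 lower (6 and 4 rescaled), where 46.5% of all genes were higher (25.9% rescaled) and 9.27% lower (21.1% rescaled). The share of droplet genes called higher was thus no larger than that of all genes as deposited. The lipase Mgll fell by 1.18. Cidec, which enlarges droplets, rose from 12.5 to 45.5 TPM, Plin4 from 7.16 to 24.4 TPM and Hilpda, an inhibitor of lipolysis, from 3.98 to 14.1 TPM. Of 29 genes of fatty acid oxidation and PPAR-alpha targets, 7 were higher and 8 lower (3 and 12 rescaled). The factor itself, Ppara, fell from 53.1 ± 13.1 to 20.3 ± 2.92 TPM and the fatty acid binding protein Fabp1 from 4744 ± 1235 to 2375 ± 123 TPM.

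Bile acid synthesis and transport were lower as a list, with 13 of 21 genes lower and 3 higher (16 and 2 rescaled) and a median of -0.65. Cyp8b1 stood at 508, 530, 388 and 366 TPM on chow and at 25.4, 12.8, 14.9 and 18.2 TPM on the diet (log2 difference -4.60, SE 0.31, adjusted p = 1.1e-12). Its W/W level was 334 ± 117 TPM on chow and 280 ± 60.1 TPM on the diet, and the F/F response differed from that of W/W by -4.40 (SE 0.44, adjusted p = 2.1e-08). Slc10a1, the main uptake carrier for bile acids, stood at 655, 342, 485 and 397 TPM and then at 137, 88.5, 75.3 and 114 TPM (-2.16, SE 0.21, adjusted p = 1.5e-09). Abcb11, the canalicular export pump, fell by 1.18 (SE 0.22, adjusted p = 4.9e-05). The transcripts of the basolateral exporters Slc51b and Abcc4 rose by 1.62 and 1.16. Bile acid flux was not measured. Cyp7a1, the rate-limiting enzyme of bile acid synthesis, stood at 41.0, 9.67, 22.2 and 13.5 TPM on chow and at 21, 10.1, 11.3 and 15.6 TPM on the diet, with overlapping groups (-0.40, SE 0.45, adjusted p = 0.47).

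Genes with male-biased expression in mouse liver, which the pulsed male pattern of growth hormone maintains, fell almost as a block. Of 18 tested, 17 were lower, 0 higher and 1, Gstp1, not called, as deposited and rescaled, with a median of -2.56. The summed TPM of the list was 64231, 39710, 25832 and 25341 in the chow livers and 12254, 12740, 9578 and 7279 in the diet livers. The diet livers were all below the chow livers, and the chow livers themselves spanned more than 2-fold. Chow liver 1 stood apart in part of the list: Hsd3b5, a steroid dehydrogenase, was at 152 TPM there and at 1.88 to 6.79 TPM in the other 3, and Mup7 at 1451 against 26.5 to 88.1 TPM. Without chow liver 1, the log2 differences of Hsd3b5, Mup7 and Mup15 went from -2.54, -3.42 and -2.44 to -1.23, -2.15 and -1.13, and none of the 3 was called (adjusted p = 0.17, 0.064 and 0.31). In W/W livers 2 of the 18 genes were lower on the diet, and the response was lower in F/F than in W/W for 13 of the 18 on both scales, where 4.54% of all genes were as deposited. In W/F livers 17 of the 18 were lower too, with a median of -4.42, where 8.53% of all genes were lower. The response was higher in F/F than in W/F for 4 of the 18 on both scales and lower for 0, where 1.34% of all genes were higher as deposited. The growth hormone receptor Ghr and its target gene Igf1 fell by 1.38 and 0.66, and the feedback gene Socs2 stood at 12.6 and 13.6 TPM. Of 10 female-biased genes 1 was higher, Cyp2a4 at 3.90 and 11.0 TPM, and 3 lower, led by Cyp2b9 at 7.84, 30.5, 74.5 and 48.3 TPM on chow and 0.121, 0.0614, 0.122 and 0.496 TPM on the diet.

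As deposited, hepatocyte secreted proteins and enzymes were lower beside their transcription factors, of which most did not pass the test. Rescaled, more of the list was called lower, Hnf4a among them. The list of hepatocyte factors and secreted proteins had 16 of 29 genes lower and 2 higher (21 and 2 rescaled). Alb, serum albumin, stood at 39816, 50047, 60460 and 52237 TPM on chow and at 18000, 18785, 21731 and 18891 TPM on the diet (log2 difference -1.38, SE 0.19, adjusted p = 5.6e-07). The Alb groups did not overlap. Hnf4a, the master hepatocyte factor, stood at 329, 430, 355 and 346 TPM and then at 261, 330, 294 and 277 TPM, overlapping by 1 liver (-0.32, SE 0.14, adjusted p = 0.054; rescaled -0.67, adjusted p = 0.0002). It was called without chow liver 1 or diet liver 2 (adjusted p = 0.046 and 0.036). Of 20 urea cycle and amino acid enzymes 16 were lower and 2 higher (18 and 1 rescaled), with Cps1, the entry enzyme of the urea cycle, at 949 ± 234 and 337 ± 74.5 TPM and Oat and Glul down by 1.86 and 1.65. Of 19 cytochrome P450 genes of families 1 to 3, 14 were lower and 1 higher (15 and 1 rescaled). Cyp2e1, the ethanol-inducible P450, fell from 5234 ± 581 to 1599 ± 762 TPM. Cyp2a5 was the 1 that rose, by 1.61.

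Resident Kupffer cell genes split. In bulk liver, fewer cells of a type and less RNA per cell cannot be told apart, here and for each cell type that follows. Clec4f, a lectin of Kupffer cells alone in mouse liver (chr6:83644542-83656187, minus strand), stood at 12.4, 13.7, 12.9 and 5.84 TPM on chow and at 0.460, 0.280, 0.508 and 0.168 TPM on the diet (log2 difference -3.12, SE 0.27, adjusted p = 2.2e-10). Vsig4, their complement receptor, stood at 5.21, 5.44, 9.88 and 3.36 TPM and then at 1.53, 0.465, 1.61 and 0.906 TPM (-1.67, SE 0.31, adjusted p = 3.5e-05). Neither gene had overlapping groups. In W/W livers Clec4f stood at 49.1 ± 6.59 TPM on chow and 72.3 ± 4.17 TPM on the diet, and in W/F at 42.4 ± 12.1 and 45.0 ± 18.2 TPM. The F/F response of Clec4f was lower by 3.67 than that of W/W (SE 0.39, adjusted p = 5.4e-08) and by 3.15 than that of W/F (SE 0.39, adjusted p = 5.9e-06). Cd5l and Timd4, further identity genes, were low in F/F on both diets, at 1.66 ± 0.390 and 1.58 ± 0.424 TPM for Cd5l and at most 0.21 TPM for Timd4, where W/W chow livers held 57.8 ± 12.1 and 4.35 ± 0.930 TPM. Over the list, 3 of 15 genes were lower, 2 higher and 10 not called (3 lower and 1 higher rescaled), where 9.27% of all genes were lower and 46.5% higher. The third that fell was Cd207, langerin, by 2.30, from 15.8 to 25.45 TPM on chow to 1.59 to 5.83 TPM on the diet. W/W livers held 0.96 to 3.51 TPM of Cd207 on chow and 0.746 to 2.06 TPM on the diet. On chow, Cd207 was thus higher in F/F than in W/W, unlike Clec4f, Cd5l and Timd4. The 2 that rose, named after their values were seen, were Hmox1, haem oxygenase, from 27.6, 33.4, 39.0 and 35.4 TPM to 151, 101, 107 and 141 TPM, and Id3, an inhibitor of transcription factors, by 0.89 (adjusted p = 0.01; rescaled 0.55, adjusted p = 0.12). The summed level of the list was 165 to 238 TPM on chow and 264 to 347 TPM on the diet, most of it Hmox1 and Id3 on the diet.

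Genes of lipid-associated macrophages rose together, with 23 of 24 higher, 0 lower and Lipa not called (21 higher rescaled), and a median of 2.17. Trem2, a lipid receptor of these cells, stood at 5.42, 3.59, 8.58 and 7.50 TPM on chow and at 63.5, 55.3, 43.6 and 59.2 TPM on the diet (log2 difference 3.00, SE 0.27, adjusted p = 2.9e-10). Mmp12, a macrophage elastase, stood at 3.70, 4.04, 5.58 and 4.77 TPM and then at 51.2, 30.6, 41.4 and 49.3 TPM (2.98, SE 0.35, adjusted p = 4.2e-08). Both groups of values were tight and apart. In W/W livers Trem2 was at 0.175 ± 0.0461 and 0.471 ± 0.235 TPM, below the F/F chow livers in both groups. In W/F livers it went from 0.227 ± 0.0979 to 42.4 ± 5.69 TPM. The F/F response of Trem2 was larger than that of W/W by 2.69 (SE 0.38, adjusted p = 3.2e-06) and smaller than that of W/F by 2.14 (SE 0.38, adjusted p = 0.00049). Over the list, 21 of 24 genes had a higher response in F/F than in W/W (19 rescaled), where 41.5% of all genes did, and 17 of 24 a lower one than in W/F on both scales, where 5.49% of all genes did. The summed level of the list was 3342 to 4462 TPM in F/F chow livers and 13380 to 15360 TPM in F/F diet livers, beside 1587 to 1962 TPM in W/W chow livers and 9077 to 11190 TPM in W/F diet livers.

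**Figure D4:**
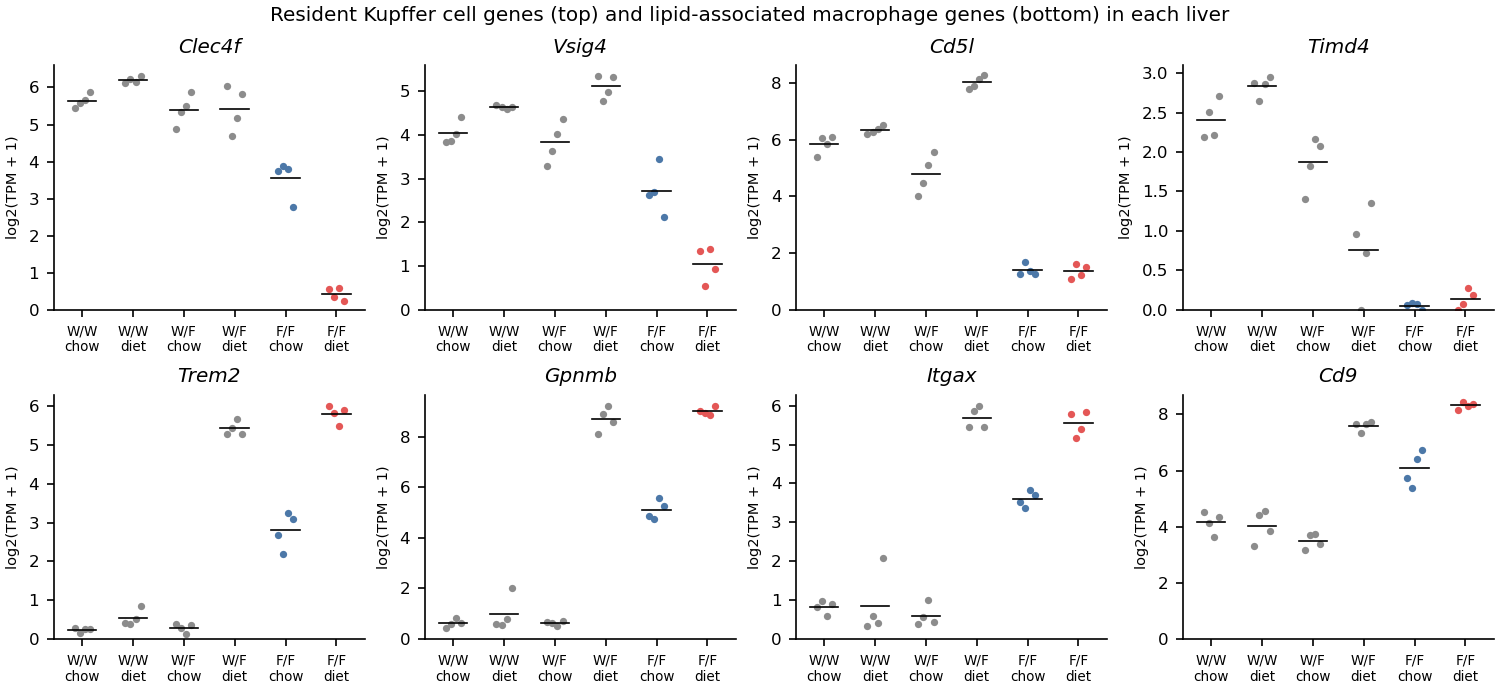
Level of 4 Kupffer cell genes (Clec4f, Vsig4, Cd5l, Timd4, top) and 4 lipid-associated macrophage genes (Trem2, Gpnmb, Itgax, Cd9, bottom) as log2(TPM + 1) in each liver of W/W, W/F and F/F mice on chow and on the MASH diet, with lines at the group means (4 mice each). F/F diet livers combine the lowest Clec4f (0.168 to 0.508 TPM) with Trem2 at 43.6 to 63.5 TPM, while W/F diet livers hold both genes.

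Leukocyte genes rose as well. Of 27 monocyte, cytokine and chemokine genes 23 were higher and 0 lower (19 and 0 rescaled). Ccl2, the chemokine that draws monocytes, stood at 4.84, 2.69, 10.6 and 8.86 TPM on chow and at 53.2, 61.6, 58.1 and 70.1 TPM on the diet (log2 difference 3.12, SE 0.56, adjusted p = 2.4e-05). Itgam and Cd14 rose by 2.75 and 2.32, whereas Il1b stood at 2.86 ± 0.431 and 6.35 ± 1.31 TPM (0.92, SE 0.38, adjusted p = 0.041). Neutrophil genes were higher for 14 of 15 and lower for 0 (13 and 0 rescaled), with S100a8 at 11.6, 5.46, 7.88 and 9.69 TPM and then at 64.6, 125, 43.1 and 90.2 TPM. The ranges of S100a8 were apart, and the neutrophil list summed to 39.1 to 56.0 TPM on chow and 212 to 556 TPM on the diet. Of 24 listed lymphocyte and natural killer genes 16 reached the filter. Of these, 13 were higher and 0 lower (9 and 0 rescaled), where 46.5% of all genes were higher (25.9% rescaled). Most were at low levels, such as Cd8a at 0.346 and 1.81 TPM. Genes this low can reach 1 TPM in 4 libraries through the diet livers alone, so the filter can in part set this count. Of 16 genes of MHC class II presentation 7 were higher (5 rescaled), near the share of all genes, and the abundant H2-Ab1 at 113 and 156 TPM and H2-Eb1 at 173 and 222 TPM were not called. In W/F livers 16 of these 16 were higher on the diet (12 rescaled), where 52.4% of all genes were. Of 16 interferon-stimulated genes 12 were higher (11 rescaled), led by Oas1a at 8.03 and 43.3 TPM. Diet liver 2 held 1388 TPM of this list in sum, against 678 to 699 TPM in the other diet livers.

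Lysosomal genes rose on a broad front, with 22 of 25 higher and 1 lower (18 and 1 rescaled) and a median of 0.96. Ctsd, the aspartic protease cathepsin D, stood at 273, 236, 336 and 321 TPM on chow and at 1255, 1279, 1117 and 1402 TPM on the diet (log2 difference 2.12, SE 0.15, adjusted p = 3.3e-12). Ctss and Ctsk, cathepsins of macrophages, rose by 3.04 and 2.77, and the proton pump subunit Atp6v0d2 by 2.16. Lamp1 rose by 0.70 and Lamp2 fell by 0.34. The core letters of the CLEAR element, which binds TFEB, searched as TCACGTGA, were found before the start of 4 of the 17 genes with a promoter entry (Ctsa, Ctsd, Mcoln1 and Atp6v1a), against 0.907% of all genes. Of the lysosomal list, Ctsb, Ctsd, Ctsl, Ctss, Lipa and Atp6v0d2 also stand in the lipid-associated macrophage list.

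Immediate early genes, the first transcripts made after a stimulus, were higher for 15 of 18 and lower for 0 on both scales, with a median of 1.52. Fos, a subunit of the AP-1 factor, stood at 2.48, 2.70, 4.10 and 2.12 TPM on chow and at 28.2, 31.8, 42.4 and 58.6 TPM on the diet (log2 difference 3.39, SE 0.44, adjusted p = 2e-07). Its partners Jun and Junb rose by 1.60 and 1.44, and Atf3 from 6.98, 5.68, 7.45 and 11.9 TPM to 69.1, 55.0, 64.1 and 75.3 TPM. Since AP-1 genes and macrophage genes both rose, the letters of the AP-1 site, TGANTCA, were searched in the 250 bases before each start. They were found in 5 of the 17 lipid-associated macrophage genes with an entry (Trem2, Cd68, Mmp12, Itgax and Ms4a7), against 7.82% of all genes. Matches were also present in 2 of 12 male-biased, 2 of 16 sterol and 2 of 17 lysosomal genes, and in 0 of 13 immediate early genes. A match of letters is not a bound site, here or for the CLEAR core, and a part of AP-1 in these changes was not tested. The Trem2 window, chr17:48346151-48346400 on the plus strand, is shown with its match in capitals close to the start site.
Trem2: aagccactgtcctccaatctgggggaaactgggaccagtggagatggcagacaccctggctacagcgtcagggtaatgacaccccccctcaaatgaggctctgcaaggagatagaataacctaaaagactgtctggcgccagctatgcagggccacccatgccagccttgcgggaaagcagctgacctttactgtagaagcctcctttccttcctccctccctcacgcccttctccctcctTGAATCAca

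Collagen and stellate cell genes were higher for 26 of 34 and lower for 2 (25 and 5 rescaled), with a median of 1.33. Col1a1, the main fibrillar collagen, stood at 45.2, 25.5, 44.3 and 69.1 TPM on chow and at 255, 299, 261 and 261 TPM on the diet (log2 difference 2.60, SE 0.39, adjusted p = 1.9e-06). Timp1, an inhibitor of matrix proteases, stood at 15.6, 9.23, 19.1 and 28.8 TPM and then at 65.3, 75.5, 78.6 and 86.3 TPM (2.11, SE 0.36, adjusted p = 1.4e-05). The groups were apart for both genes. The W/W levels of Col1a1 were 3.11 ± 0.75 TPM on chow and 3.89 ± 3.05 TPM on the diet, so F/F chow livers already held more than the W/W livers of either group. W/F livers went from 4.16 ± 0.285 to 126 ± 41.2 TPM, and 16 of the 34 genes had a lower response in F/F than in W/F (17 rescaled), where 5.49% of all genes did (5.14% rescaled). Against W/W, 24 had a higher response in F/F (18 rescaled, with 3 lower), where 41.5% of all genes did (14.7% rescaled). Acta2, the smooth muscle actin of activated stellate cells, stood at 7.52, 4.19, 6.40 and 14.1 TPM and then at 4.72, 16.4, 19.7 and 12.1 TPM, with overlapping groups (0.61, SE 0.37, adjusted p = 0.16), and was called without chow liver 4 (0.90, adjusted p = 0.045) or diet liver 1 (1.00, adjusted p = 0.019). Lrat, which stores retinol in quiescent stellate cells, fell by 0.61. Of 19 matrix proteases, inhibitors and crosslinking enzymes 16 were higher and 0 lower (14 and 0 rescaled), with Plau, the urokinase that activates plasmin, up by 3.16.

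Bile duct genes were higher in 22 of 22 (21 rescaled), with a median of 1.81. Krt19, the duct keratin, stood at 5.58, 5.47, 6.46 and 10.1 TPM on chow and at 33.1, 32.1, 44.0 and 31.6 TPM on the diet (log2 difference 2.22, SE 0.22, adjusted p = 1.8e-09). Sox9, a factor of duct and progenitor cells, stood at 8.47, 6.92, 10.3 and 12.3 TPM and then at 48.2, 32.7, 40.2 and 36.6 TPM (1.96, SE 0.21, adjusted p = 7.9e-09). Both genes were higher in every diet liver. The list summed to 842, 817, 823 and 1109 TPM on chow and to 3424, 4026, 3988 and 3784 TPM on the diet in F/F, most of it Spp1, osteopontin. W/W livers held 73.5 to 85.3 TPM on chow and 83.7 to 93.5 TPM on the diet, and W/F livers 91.3 to 207 TPM on chow and 1294 to 1776 TPM on the diet. By this sum, F/F livers were the highest of the 3 genotypes in each condition. Spp1, most of the F/F sum, also stands in the lipid-associated macrophage list. The responses of Krt19 in F/F and W/F, 2.22 and 2.25, differed by -0.03 (SE 0.31, adjusted p = 0.97).

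**Figure D5:**
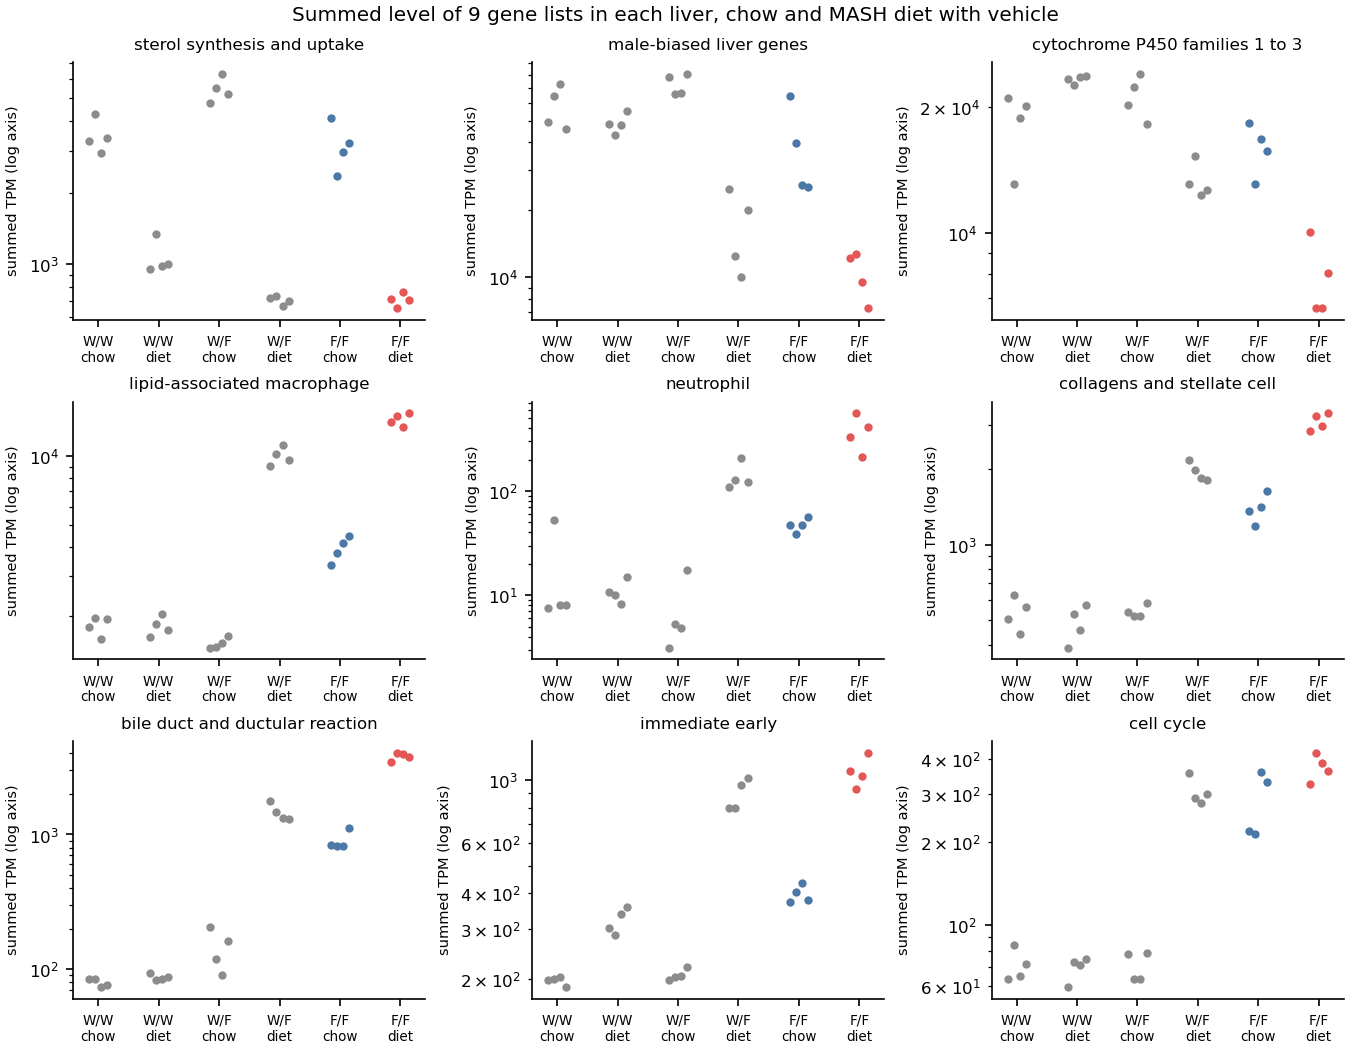
Summed TPM (log axis) of 9 gene lists in each liver of W/W, W/F and F/F mice on chow and on the MASH diet with vehicle. The F/F bile duct list, most of it Spp1, holds 817 to 1109 TPM on chow and 3424 to 4026 TPM on the diet. These sums lie above both other genotypes, while the F/F sterol list falls to 653 to 761 TPM.

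Cell cycle genes were mostly not called against chow. Of 24 tested, 7 were higher and 0 lower (1 and 0 rescaled), with a median of 0.27 beside 0.32 for all genes. Mki67, the proliferation antigen, stood at 5.22, 6.38, 9.61 and 7.76 TPM on chow and at 7.15, 10.1, 10.6 and 6.87 TPM on the diet, with overlapping groups (log2 difference 0.24, SE 0.25, adjusted p = 0.43). W/W livers held 0.573 ± 0.426 TPM on chow and 0.170 ± 0.0520 TPM on the diet, below each F/F liver. W/F livers went from 0.763 ± 0.250 to 4.57 ± 0.912 TPM. In W/F 22 of the 24 genes were higher (19 rescaled), where 52.4% of all genes were (28% rescaled). On both scales 15 had a lower response in F/F than in W/F, which 5.49% of all genes showed (5.14% rescaled). The count of 7 was 3 without chow liver 1, 4 without chow liver 2 and 3 without diet liver 2. Cdkn1a, which encodes the arrest protein p21, stood at 7.03, 30.3, 34.3 and 36.8 TPM and then at 38.4, 58.3, 52.3 and 48.1 TPM (1.05, SE 0.45, adjusted p = 0.049).

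Of 24 genes of the unfolded protein and integrated stress response 10 were higher and 1 lower (6 and 4 rescaled), near the shares of all genes called higher, 46.5% and 25.9%. Those higher included the factors Atf4, Atf3 and Ddit3, and the 1 lower was Asns, an amino acid synthetase. Ddit3 rose from 16.1 ± 4.06 to 46.7 ± 5.65 TPM and the hormone gene Fgf21 from 5.93 ± 3.01 to 27.5 ± 2.27 TPM. The chaperones Hspa5 at 492 and 625 TPM and Hsp90b1 at 642 and 624 TPM were not called. The list count of 11 called was 7 without diet liver 4. Of 21 Nrf2 antioxidant genes 15 were higher and 0 lower (10 and 3 rescaled). Gstm3, a glutathione transferase with near-identical relatives, stood at 421, 160, 769 and 917 TPM and then at 3214, 2288, 2473 and 2389 TPM (log2 difference 2.45, SE 0.52, adjusted p = 0.00021), and in W/W it fell from 116 ± 25.6 to 33.3 ± 13.5 TPM. The imprinted RNA H19, high in fetal liver, rose from 17.4, 35.8, 152 and 119 TPM to 233, 267, 197 and 224 TPM, while Afp stood at 3.16 and 3.85 TPM.

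Plasma protein lists were mixed. Of 21 acute phase genes 2 were higher and 5 lower (1 and 6 rescaled). Lcn2, lipocalin 2, stood at 173, 548, 237 and 389 TPM on chow and at 1745, 2252, 2238 and 2005 TPM on the diet (log2 difference 2.74, SE 1.05, adjusted p = 0.028; rescaled adjusted p = 0.062). Chow liver 2 held 75320 TPM of the acute phase list in sum, against 32070 to 34610 TPM in the other chow livers, and the 7 calls were 3 without it. Of 24 complement genes 11 were lower and 7 higher (13 and 7 rescaled). Mbl2, a mannose-binding lectin of hepatocytes, stood at 455, 759, 791 and 611 TPM and then at 104, 55.8, 94.3 and 55.1 TPM (-3.09, SE 0.23, adjusted p = 1.2e-11). C1qb, made by macrophages, stood at 103, 98.6, 143 and 126 TPM and then at 572, 543, 438 and 519 TPM (2.14, SE 0.34, adjusted p = 5.3e-06). The complement genes that fell are those secreted by hepatocytes, such as C8a, C8b and C9, and those that rose include the leukocyte receptors C3ar1 and C5ar1.

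Mitochondrial genes were lower by small amounts. Of 25 nuclear genes of the respiratory chain 16 were lower and 0 higher (22 and 0 rescaled), with a median of -0.22, and of 13 mitochondrially encoded genes 11 were lower (13 rescaled), with a median of -0.52. Endothelial genes divided, with 8 of 22 higher and 7 lower (6 and 9 rescaled), where 46.5% of all genes were higher and 9.27% lower (25.9% and 21.1% rescaled). The sinusoidal receptor Kdr fell by 0.72 and Lyve1 rose by 1.31. Of 18 core clock genes 8 were called, 7 higher and 1 lower (4 rescaled, 2 and 2). Among all genes 55.8% were called (47% rescaled), so the list did not exceed that share. The count of 8 was 2 to 5 without chow liver 2, 3 or 4 or diet liver 1 or 4. Markers of tissue that could be carried along were checked too. Of the 8 skeletal muscle genes 7 were not tested, and their sum was 135.9 TPM in diet liver 3 against 2.39 to 3.45 TPM in the other diet livers. Of 5 red blood cell genes 3 were higher and 1, Alas2, lower (1 and 1 rescaled). The haemoglobin genes Hba-a1 and Hbb-bs stood at 135 and 258 TPM and at 187 and 325 TPM. Of 10 adipocyte genes 6 were tested, with 1 higher and 1 lower on both scales, and Adipoq, Lep, Retn and Plin1 did not reach the filter. The list summed to 1554 to 2440 TPM on chow and 227 to 351 TPM on the diet, and most of it was Car3, a carbonic anhydrase that hepatocytes also express, at 1854 and 216 TPM. Of 5 pancreas and gut genes 1 was higher. The part of these markers in the results was not tested.

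The calls in F/F were set beside those in W/F and W/W, in comparisons that share no library. Of the genes higher in F/F, 6700 were also higher in W/F, which is 86.6% of the F/F genes and 76.8% of the W/F genes, and 937 of the genes lower in F/F were lower in W/F (60.8% and 66.0%), where 52.4% of all genes were higher and 8.53% lower in W/F. Rescaled, 28% of all genes were higher and 26.8% lower in W/F, and the shared genes were 3279 higher (76.2% and 70.3%) and 2830 lower (80.5% and 63.6%). With W/W, 247 genes were higher in both (3.19% of the F/F genes and 57.3% of the W/W genes) and 491 lower in both (31.8% and 28.7%), where 431 of all genes (2.59%) were higher and 1710 (10.3%) lower in W/W. Rescaled, 7% were higher and 8.43% lower in W/W, and the shared genes were 443 (10.3% and 38.0%) and 845 (24% and 60.3%). The difference between the F/F and W/W responses itself passed for 7654 genes (46.0%), with a higher response in F/F for 6899 (41.5%) and a lower one for 755 (4.54%). Rescaled it passed for 4469 (26.9%), and the share with the higher response in F/F went from 90.1% to 54.6%. Between F/F and W/F it passed for 1136 genes (6.83%), 223 higher (1.34%) and 913 lower (5.49%) in F/F. Rescaled it passed for 1351 genes (8.12%), 495 higher (2.98%) and 856 lower (5.14%), so the share with the higher response in F/F went from 19.6% to 36.6%. As deposited, the count of 1136 was 703 without F/F chow liver 3, 722 without F/F chow liver 4 and 746 without W/F diet liver 3.

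Some genes went opposite ways in F/F and W/W livers. On both scales 77 genes were called in opposite directions. Fabp5, a fatty acid binding protein of macrophages and other cells, stood at 19.2, 70.4, 26.2 and 21.4 TPM on chow and at 151, 126, 118 and 157 TPM on the diet in F/F, and fell from 78.5 ± 29.2 to 12.6 ± 3.37 TPM in W/W (difference of responses 4.70, SE 0.51, adjusted p = 1.1e-07). Cyp2e1 and Glul, both expressed around the central vein, fell in F/F and rose in W/W, with Cyp2e1 going from 5677 ± 1386 to 9754 ± 605 TPM in W/W. The lysophospholipid transporter Mfsd2a fell from 15.7 to 1.69 TPM in F/F and rose from 17.5 to 59.7 TPM in W/W, and the organic anion transporter Slc22a7 went from 40.1 to 2.26 TPM and from 28.6 to 55.3 TPM. Cfd, adipsin, is the lowest of the F/F minus W/W differences (-6.32, SE 0.80, adjusted p = 8.6e-07). It stood at 3.30, 2.38, 2.52 and 2.00 TPM on chow and at 0.370, 0.873, 6.80 and 1.01 TPM on the diet in F/F, with overlapping groups, and rose from 5.26 ± 4.97 to 292 ± 129 TPM in W/W. Cfd is also an adipocyte marker. In W/W, 3 of the 6 tested adipocyte genes were higher on the diet (Cfd, Cidec and Lipe) and 0 lower, and the list summed to 907 to 3018 TPM on chow and 2439 to 3505 TPM on the diet.

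Against W/F, 6 genes had the largest differences of response. The response was lower in F/F for Sprr1a, Cyp2b9 and Scd1. Mup15, Mup7 and Hsd3b5 fell in both genotypes, and fell less in F/F. Sprr1a, a keratinocyte envelope protein, stood at 19.4, 22.9, 148 and 310 TPM on chow and at 52.8, 127, 91.0 and 78.2 TPM on the diet in F/F, with overlapping groups. In W/F it went from 0.290 ± 0.236 to 122 ± 42.5 TPM, and the responses differed by -6.24 (SE 0.82, adjusted p = 1.5e-05). Hsd3b5 and Mup7 went from 426 ± 79.5 to 0.421 ± 0.182 TPM and from 5169 ± 1364 to 5.07 ± 1.94 TPM in W/F. Their F/F responses were less negative, higher by 5.68 (SE 1.27, adjusted p = 0.0054) and 6.32 (SE 1.49, adjusted p = 0.0079). On chow, F/F liver 1 held 152 TPM of Hsd3b5 and 1451 TPM of Mup7. The other F/F chow livers held 1.88 to 6.79 and 26.5 to 88.1 TPM, so F/F started below the W/F means. The F/F diet livers held 0.719 ± 0.0389 TPM of Hsd3b5 and 9.24 ± 3.47 TPM of Mup7, both far below the W/F chow livers. For Cyp2b9 the F/F response was lower by 6.43 (SE 1.26, adjusted p = 0.0015), with W/F livers at 2.73 ± 2.75 TPM on chow and 14.3 ± 10.3 TPM on the diet. For Mup15 the F/F response was higher by 6.59 (SE 1.44, adjusted p = 0.0044), with F/F chow liver 1 at 324 TPM and the others at 6.21 to 10.9 TPM. Without F/F chow liver 1, the falls of Mup15, Mup7 and Hsd3b5 in F/F were not called, as given above.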

How the data were processed

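PolyA RNA of mouse liver was sequenced, and the authors deposited 1 table of TPM values for 36 libraries, whose columns each sum to 1000000. Per the submitters' processing notes, Trimmomatic 0.36, STAR 2.5.2b and featureCounts of Subread 1.5.2 were used with GRCm38 (mm10), while the annotation release is not given in the sources used here. TPM keep no read total: depth (18 to 35.7 M reads, M for 1000000) was recovered from genes at 0.02 to 0.4 TPM with GENCODE M21 exon lengths, and 93.1% to 95.1% of values with up to 20 reads lay within 0.1 of a whole read, where chance gives 20%. The depth ranges given run from the lowest to the highest library, and no interval was computed for a library. Count tests were not used on these values.

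The 16638 genes that 4 or more libraries held at 1 TPM or more were fitted as log2(TPM + 1) with limma 3.58.1 in R 4.3.3, with 1 mean for each of 9 groups (27 residual degrees of freedom), a variance trend, two-sided tests and Benjamini-Hochberg adjustment over 16638 genes at 0.05. Fold changes are on this log2 scale, which understates changes of low genes. Differences of responses are contrasts of the same fit. The script was tested on simulated data.

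Named genes were the 12 largest rises and falls called on both scales without overlap and with at least 5 TPM in the higher group, the 4 and 3 most extreme differences from W/W and W/F each way, 26 fixed genes and up to 4 members of each list, with further list members added for their role. Members and the 38 lists were chosen with earlier results of these data known. Alternatives were another pseudocount, other filters, rescaling, array weights, fewer groups, a replicate block and each library left out. Same-numbered F/F chow and diet livers correlated at -0.001 to 0.114 in their deviations, highest for the livers numbered 1, and other pairs at -0.059 to 0.05. Whether replicate numbers share a batch across the groups was not tested. No column of the table was left unused (0). A few genes of the lists are counted but not reported by name.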

Additional observations from a re-analysis of the deposited data

Results flagged for a closer look

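Among 112 sets of 4 livers (56 named genes on 2 diets in F/F), 13 had 1 liver far from the other 3 by Dixon's criterion (the gap to the nearest liver over the range of all 4), where chance gives about 1 in 20. Chow liver 1 was high in 4 of them: Hsd3b5 at 152 TPM (others 1.88 to 6.79), Mup7 at 1451 TPM (26.5 to 88.1), Mup15 at 324 TPM (6.21 to 10.9) and Gm21320 at 301 TPM (72.2 to 108). Fabp5 was at 70.4 TPM in chow liver 2 (others 19.2 to 26.2), Npy at 0.411 TPM in chow liver 3 (others 0) and Clec4f at 5.84 TPM in chow liver 4 (others 12.4 to 13.7). On the diet, Hsd3b5 was at 0.661 TPM in liver 1 (others 0.735 to 0.743), Col1a1 at 299 TPM in liver 2 (255 to 261), Krt19 at 44.0 TPM (31.6 to 33.1) and Cfd at 6.80 TPM (0.370 to 1.01) in liver 3, and Cyp2b9 at 0.496 TPM (0.0614 to 0.122) and Igha at 65.6 TPM (7.65 to 16.8) in liver 4.

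Responses to the diet that differed between F/F and W/W at an adjusted p of 0.05 numbered 7654 over all genes (limma). Responses higher in F/F, on the log2 scale, were those of Fabp5 (4.70), Gstm3 (4.29), Chil3 (4.03), Ngp (3.75), Ccl2 (3.31), Trem2 (2.69), Col1a1 (2.5), Timp1 (2.27), Krt19 (2.16), Abcg1 (1.80), Sqle (1.68), Mylip (0.86), Abca1 (0.64) and Nr1h2 (0.56). Responses lower in F/F were those of Cfd (-6.32), Mup3 (-5.79), Sult2a8 (-5.67), Gm21320 (-5.45), Cyp8b1 (-4.40), Clec4f (-3.67), Scd1 (-3.36), Abcg5 (-2.96), Abcg8 (-2.70), Alb (-1.17) and Srebf1 (-0.85). Of these 25 genes, 22 were also called with the same sign after rescaling, and Abca1, Nr1h2 and Mylip were not.

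Against W/F, 1136 genes differed in response. Named among them were Mup15 (6.59), Mup7 (6.32) and Hsd3b5 (5.68), which fell less in F/F than in W/F. Cyp2b9 (-6.43), Sprr1a (-6.24) and Scd1 (-5.94) had a lower response in F/F.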

How the results depend on the processing

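The number of genes called for the diet in F/F was 9279 and stayed within 1.5 times of it: 8772 with a pseudocount of 0.1, 6932 with a filter of 5 TPM, 10878 with no filter, 7815 rescaled and 8881 with only the groups compared. With one library left out it was 8244 to 9243. The difference between F/F and W/W was called for 4469 genes rescaled and for 6585 to 7870 with a library left out, against 7654. The difference between F/F and W/F, 1136, was 2865 with array quality weights and 703 to 1347 with a library left out. The lowest were without F/F chow liver 3 (703), F/F chow liver 4 (722) and W/F diet liver 3 (746), and the cause was not tested. With the replicate number as a block these 3 counts were 9366, 7770 and 1224. Same-numbered F/F livers correlated at -0.001 to 0.114 in their deviations, and other pairs at -0.059 to 0.05. A batch shared by replicate number across the groups was not tested.

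Nr1h3 changed sign, from 0.01 to -0.335 rescaled (adjusted p = 0.0054). The settings were also tried on 94 results, those of the named genes, Nr1h3 among them, and of the gene lists. Of the 1409 values, 1356 were graded the same as the main result, 40 weaker, 12 stronger and 1 reversed. For 72 results all values were graded the same. For a list the grade compares the size of its count of called genes, not direction or single calls. For a gene, being graded the same does not show that the sign was kept where neither value was called. A filter of 5 TPM tests fewer genes, and the neutrophil count then went from 14 to 7, the lymphocyte count from 13 to 4 and the MHC class II count from 7 to 2, which only the groups compared raised to 11. The acute phase count was 11 with array weights, against 7. At the recovered depths, genes below about 1 TPM rest on few reads.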
